A study of Vaccinium corymbosum with 9 samples.

Results

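Fruit of the highbush blueberry cultivar 'Bluecrop' (Vaccinium corymbosum) was compared at color break, when the berry starts to turn from green to blue, with early green fruit. Both stages came from untreated plants of an orchard, and each was represented by 3 libraries that the labels call independent biological replicates. The comparison covers the 46983 of 93716 annotated genes whose FPKM was 1 or more in 3 or more of these 6 libraries. FPKM is a fragment count scaled for transcript length and sequencing depth, so it allows levels of different genes to be set side by side. The study holds 9 libraries in all, with 3 from mature fruit that entered only the estimate of spread, and it was designed around the waxy bloom of the skin. RNA came from ground fruit per the labels, which do not say whether seeds were taken out. The labels' text on library construction names a poplar hybrid under alkaline stress, which does not match these samples, so it was not used.

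Color break marks the passage from a growing, green and acid berry to one that colors, softens and sweetens. The shikimate pathway supplies phenylalanine, the phenylpropanoid and flavonoid enzymes turn it into anthocyanins, and glycosyltransferases and membrane transporters bring these pigments to rest in the vacuole. Expansins, pectate lyases and xyloglucan-modifying enzymes loosen the cell wall, and sugar carriers and water channels supply the swelling cells. Auxin, which promotes the early growth of many fleshy fruits, acts through Aux/IAA repressors and auxin response factors.

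The deposited estimated counts summed to between 53154398 and 67604266 per color break library, against 52919289 to 56014561 per green library. Across genes, log2 levels correlated at 0.941 to 0.971 between color break libraries and at 0.972 to 0.973 between green libraries, but at 0.731 to 0.785 between the stages. Among the 3 color break libraries replicate 3 was the lowest for 47.5% of the genes that rose and the highest for 48.6% of the genes that fell. With it left out, 4243 genes rose and 7166 fell. Its part in the results was not tested, and several of the results in which it stood apart are given with and without it. Gene lists below were drawn from the KEGG orthologs, GO terms and protein names of the deposited table, in which many proteins are only named hypothetical, and they were chosen with earlier results of these data known. Summed levels of a list are over all its annotated genes. A largest rise or fall named for a list is that among members that averaged 10 FPKM or more in their higher stage and had no overlap between the stages, and the most abundant member is that with the highest mean over the 6 libraries. Scaffold coordinates are those of the deposited table, for which the sources used here name no genome build. Highbush blueberry is tetraploid, and how reads were shared out among near-identical gene copies is uncertain. Strand was not stated, so reads of overlapping genes cannot be told apart.

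Of the 46983 genes tested, 10688 (22.7%) were called, 4067 rising (8.66%) and 6621 falling (14.1%) at color break (edgeR quasi-likelihood test, Benjamini-Hochberg adjusted p under 0.05 and a change of at least 2-fold). The median log2 change of all genes tested was -0.01, and rises made up 38.1% of the calls. Scaling by library size alone moved that median to -0.32, with 2750 rises and 9414 falls, so that rises made up 22.6% of the calls; limma on log2(FPKM + 1) gave 2219 rises and 5479 falls. Log2 changes are given with their standard error and carry the TMM scaling of edgeR, which the FPKM do not. The median level of the genes that rose was 10.3 FPKM at color break and 3.14 FPKM in green fruit. The genes that fell had a median of 0.708 FPKM at color break and 3.33 FPKM in green fruit, where the 2 sets were thus at a similar level. The genes that rose took 30.2% ± 0.224 of all counts at color break and 9.27% ± 0.161 in green fruit (mean ± SD, n = 3 each). Those that fell took 2.47% ± 0.229 at color break and 16.0% ± 0.586 in green fruit. In whole fruit, fewer cells of a type and less RNA per cell cannot be told apart.

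The share of rises and falls differed with the level of the gene. Of 25011 genes under 5 FPKM in the stage where they were higher, 5.18% rose and 17.3% fell. Of 946 genes at 100 FPKM or more, 38.4% rose and 12.9% fell. Between 39695 and 40725 genes reached 1 FPKM in a color break library, against 46948 to 47522 in a green library, and the 1000 most abundant genes took 37.97% to 38.83% of the counts of tested genes at color break, against 31.6% to 32.3% in green fruit. A gene could pass the expression filter through a single stage, which leans it to a call in that direction. In 876 genes all 3 color break libraries and no green library reached 1 FPKM, of which 817 rose, and in 4811 genes all 3 green libraries and no color break library did, of which 3501 fell. Among the 34933 genes that reached 1 FPKM in all 6 libraries, 2891 rose and 1967 fell.

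**Figure D1:**
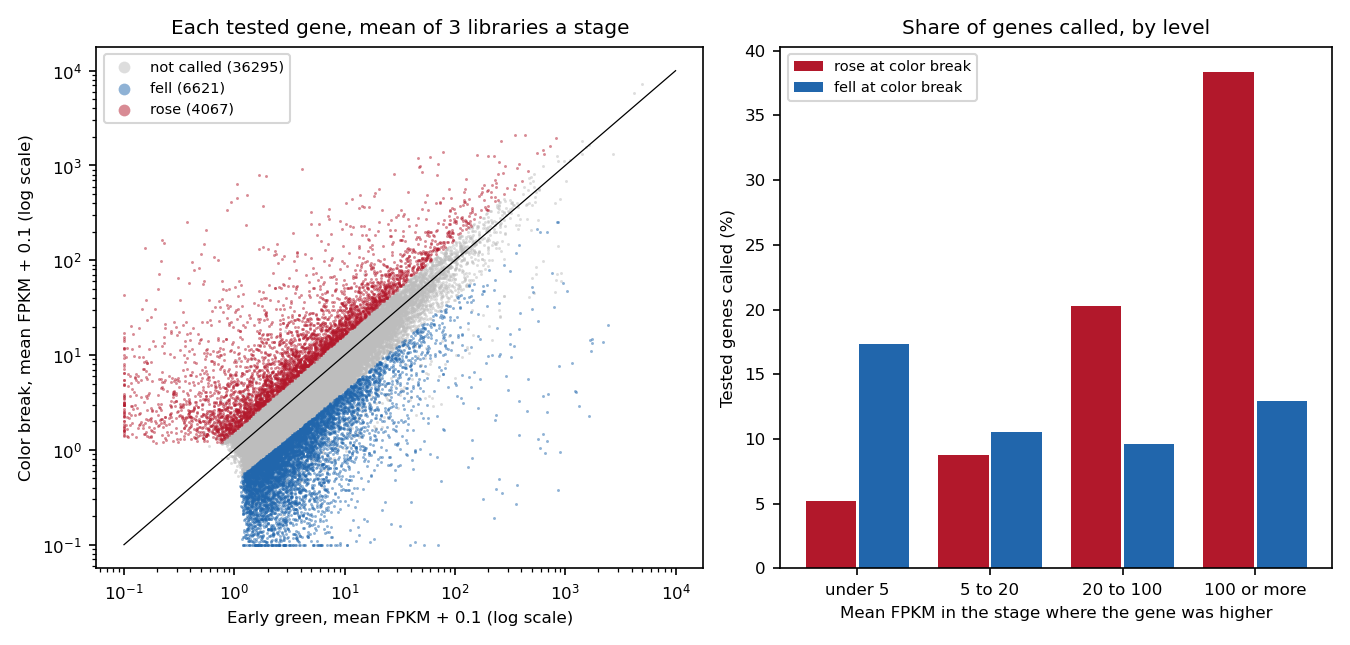
Left, the mean FPKM of each tested gene at color break (vertical) and in early green fruit (horizontal), both on log axes after adding 0.1, with the line of equal FPKM; right, the percentage of tested genes that rose or fell, by the mean FPKM of the stage where the gene was higher. Falling genes crowd the low levels, with 17.3% of genes under 5 FPKM falling, and rising genes make up 38.4% of genes at 100 FPKM or more.

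Large changes were common. At least a 16-fold rise was seen in 477 genes and a fall of that size in 689, and at least a 256-fold rise in 98 genes and such a fall in 122. Of the rising genes 55 had no counts in any green library, and of the falling genes 99 had none in any color break library. The libraries of the stages did not overlap for 99.1% of the genes called, a share that the thresholds of the call largely fix. The share over all tested genes is not given here. Genes called in either direction had a median of 4 exons, against 6 for genes not called, and 13.5% of rising and 13.2% of falling genes had a single exon, against 7.55% of genes not called.

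Copies of a gene were seldom called in opposite directions, but often differed in whether they were called. The 12028 protein descriptions shared by 2 to 4 tested genes were taken as groups of copies. In 1379 groups at least 1 copy rose, and in 633 of these (45.9%) all tested copies rose. In 2336 groups at least 1 copy fell, and in 1145 (49.0%) all did. Copies called in opposite directions occurred in 34 groups, 0.924% of the groups with a call. How far reads shared between copies contribute to this was not tested.

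**Figure D2:**
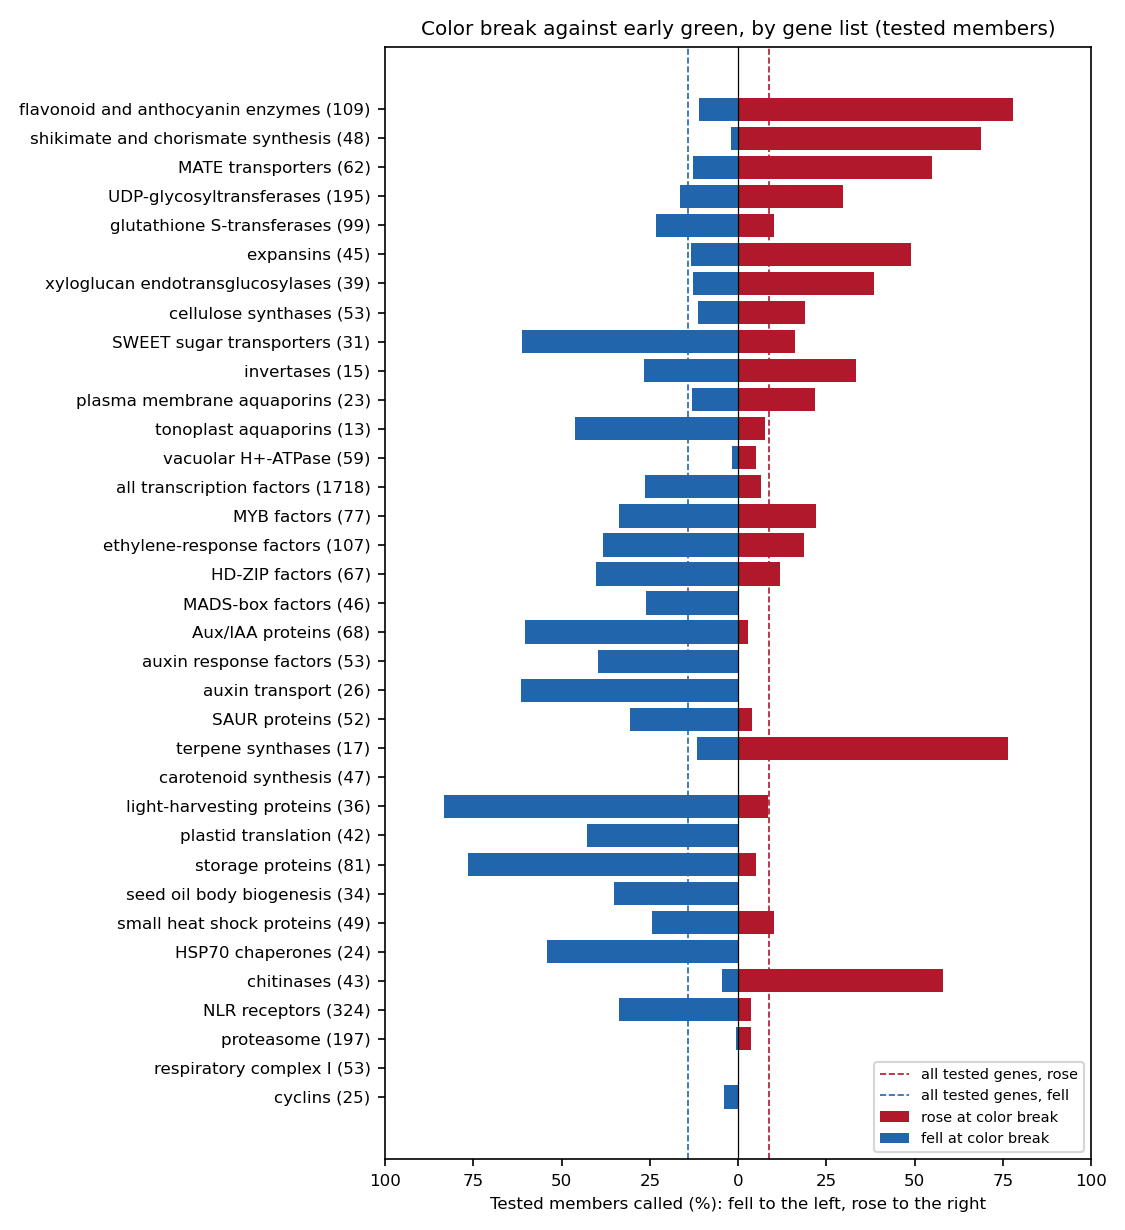
Percentage of the tested members of each gene list that rose (to the right) or fell (to the left) at color break, with the number of tested members in parentheses and dashed lines at the shares over all tested genes, 8.66% rising and 14.1% falling. Lists of pigment supply and wall loosening reach far to the right, and those of auxin signalling, light harvesting and seed storage far to the left.

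Most genes that supply pigment precursors rose. Of 58 annotated genes of the shikimate pathway, which makes the precursor of phenylalanine, 48 were tested, 33 rose and 1 fell, with a median log2 change of 1.76. DAHP synthase opens the pathway, and 11 of its 14 genes rose. The most abundant of them, VaccDscaff18-processed-gene-70.25 (scaffold 18, 7068600 to 7074104, - strand, 6 exons), had 756, 866 and 758 FPKM in the color break libraries, against 66.9, 67.2 and 70.2 FPKM in the green libraries. The stages did not overlap (log2 change 3.82 ± 0.09, adjusted p = 1.6e-09). A gene with the same description on another scaffold, VaccDscaff16-augustus-gene-328.28, showed the largest rise of the list, with 496, 568 and 525 FPKM in the color break libraries, against 36.8, 36.0 and 39.3 FPKM in the green libraries (log2 change 4.11 ± 0.10, adjusted p = 1.6e-09). EPSP synthase rose in all 7 and chorismate synthase in all 4 tested genes, whereas 3-dehydroquinate synthase, an early step, had 1 rise among 7 genes.

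Farther down, the list of flavonoid and anthocyanin enzymes had 109 tested genes with 85 rises and 12 falls, and a median log2 change of 4.10. By KEGG ortholog, all 12 tested chalcone synthase and all 8 flavanone 3-hydroxylase genes rose, and 3 of 4 anthocyanidin synthase genes. Leucoanthocyanidin reductase had 2 rises and 2 falls among 4, and anthocyanidin reductase 2 rises and 1 fall among 4. The list also holds genes outside these families. The flavonoid 3',5'-hydroxylase gene VaccDscaff8-augustus-gene-360.23, whose enzyme opens the branch to blue delphinidin pigments, was among the 5 most abundant transcripts of color break fruit. It had 2050, 2113 and 2120 FPKM in the color break libraries, against 373, 342 and 330 FPKM in the green libraries (log2 change 2.87 ± 0.05, adjusted p = 3.6e-10). Another rising gene had no counts in green fruit. This gene for hydroxycinnamoyltransferase, which feeds both lignin and phenolic acid synthesis, VaccDscaff38-processed-gene-5.8, had 11.7, 11.9 and 10.6 FPKM in the color break libraries, and no counts in the green libraries. Its rise was at least 303-fold, taken over a floor of 3 counts per green library. Caffeoyl-CoA O-methyltransferase, which methylates lignin precursors, was represented by VaccDscaff32-processed-gene-21.11, with 955, 1047 and 1109 FPKM in the color break libraries, against 73.6, 70.2 and 66.7 FPKM in the green libraries (log2 change 4.17 ± 0.09, adjusted p = 7.5e-10).

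Families whose members attach sugars to pigments or move them were tallied next. UDP-glycosyltransferases, a large family acting on many small molecules, had 58 rises and 32 falls among 195 tested genes (29.7% and 16.4%, beside 8.66% and 14.1% of all tested genes), and the most abundant, VaccDscaff26-processed-gene-234.1, had 307, 281 and 238 FPKM in the color break libraries, against 98.6, 96.7 and 98.3 FPKM in the green libraries. With library-size-only scaling the split was 46 rises and 46 falls. Of 99 tested glutathione S-transferases, enzymes that conjugate glutathione and of which single members carry anthocyanins to the vacuole in petunia, maize and Arabidopsis, 10 rose and 23 fell (10.1% and 23.2%). A pair of copies held the largest rise and the highest level of the list. VaccDscaff13-augustus-gene-26.16 (scaffold 13, 2660668 to 2664512, + strand, 3 exons) had 569, 686 and 640 FPKM in the color break libraries, against 0.557, 1.16 and 1.16 FPKM in the green libraries (log2 change 9.63 ± 0.30, adjusted p = 6.4e-08), and alone took 32.4% of the summed level of the list at color break. VaccDscaff42-augustus-gene-34.23, which carries the same description, had 156, 197 and 138 FPKM in the color break libraries, against 0.163, 0.0556 and 0.140 FPKM in the green libraries (log2 change 10.53 ± 0.30, adjusted p = 1.7e-08). In the other direction, VaccDscaff1483-snap-gene-0.7, which carries the KEGG ortholog of maleylacetoacetate isomerase, an enzyme of tyrosine breakdown, had 1.26, 0.839 and 0.814 FPKM in the color break libraries, against 12.0, 11.1 and 14.7 FPKM in the green libraries (log2 change -3.40 ± 0.29, adjusted p = 6.9e-06).

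MATE transporters, which move flavonoids and other small molecules across membranes in exchange for protons or sodium, rose in more genes than they fell: 34 of 62 tested genes rose and 8 fell (median 1.19), and with no expression filter 38 rose and 27 fell. This list was added after the annotation had been seen. The most abundant, VaccDscaff4-augustus-gene-170.22, had 154, 171 and 180 FPKM in the color break libraries, against 16.5, 16.2 and 15.8 FPKM in the green libraries (log2 change 3.66 ± 0.11, adjusted p = 4.5e-09). The largest rise was that of VaccDscaff35-snap-gene-82.35, with 88.4, 101.3 and 104 FPKM in the color break libraries, against 3.70, 2.90 and 3.55 FPKM in the green libraries (log2 change 5.13 ± 0.14, adjusted p = 5e-09). With limma on log2(FPKM + 1) 21 members rose and 11 fell.

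**Figure D3:**
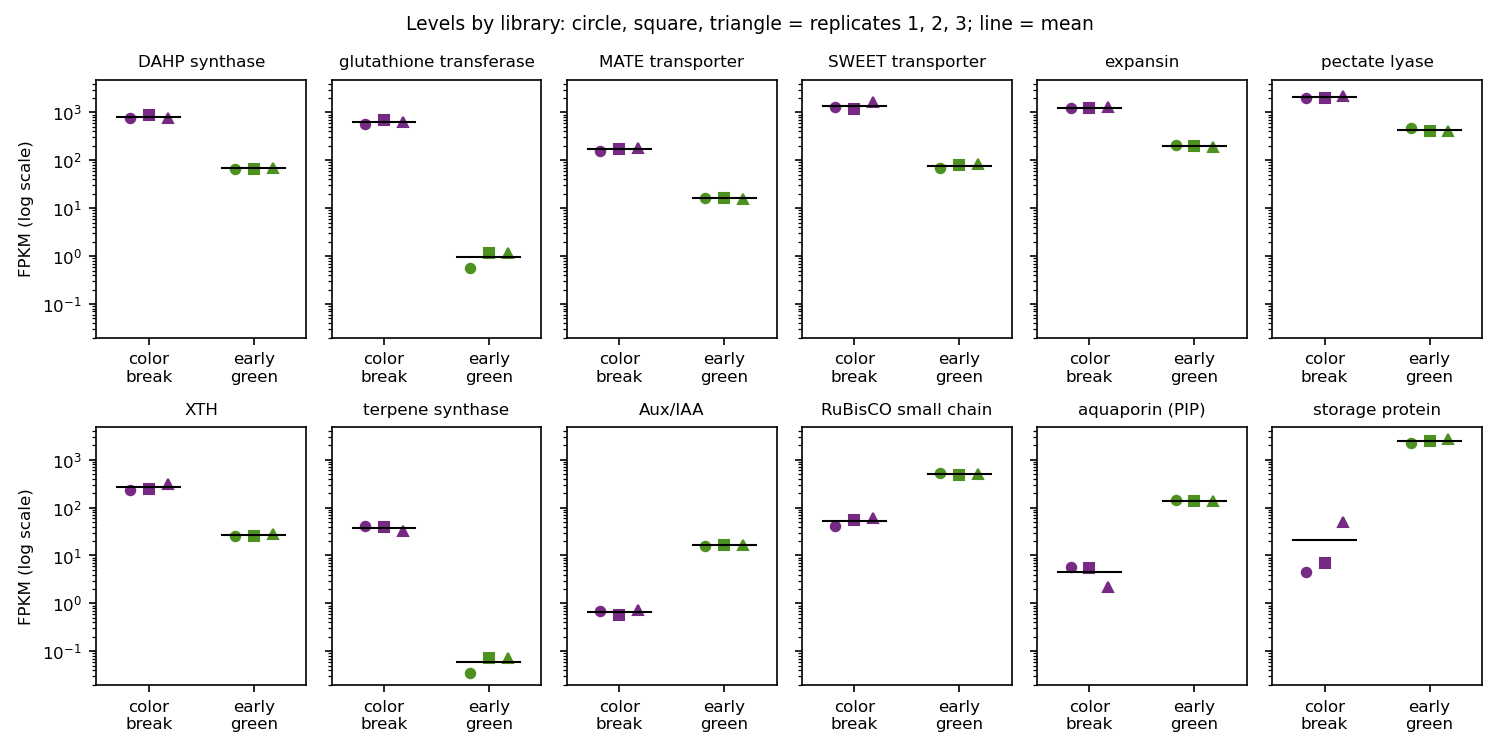
FPKM of 12 genes in each library on a log axis, color break at the left and early green at the right of each panel, with symbols for the replicates and lines at the means of 3 libraries. The stages are separate in all 12 panels, but several show genes named under a rule that asks for no overlap, which fixes their separation. Color break replicate 3 lies apart for the storage protein gene, at 50.9 FPKM.

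SWEET sugar carriers held both large rises and large falls. SWEET proteins let sugars pass membranes down their gradient. Of 58 annotated SWEET genes 31 were tested, of which 5 rose and 19 fell, and yet their summed level was 2948, 2709 and 3663 FPKM in the color break libraries, against 265, 274 and 306 FPKM in the green libraries. The rise was carried by 4 genes with 1 description, on 4 scaffolds. The most abundant, VaccDscaff102-augustus-gene-4.44 (scaffold 102, 401978 to 406354, - strand, 6 exons), had 1313, 1201 and 1610 FPKM in the color break libraries, against 70.2, 79.4 and 83.3 FPKM in the green libraries (log2 change 4.43 ± 0.12, adjusted p = 4.6e-09). The largest change was that of VaccDscaff14-snap-gene-198.21, with 349, 320 and 440 FPKM in the color break libraries, against 14.4, 9.96 and 18.6 FPKM in the green libraries (log2 change 4.97 ± 0.26, adjusted p = 1.3e-06). Together the 4 copies held 3079 ± 495 FPKM at color break and 154 ± 13.5 FPKM in green fruit. The 19 falling genes were of low level in both stages, summing to 6.30, 7.40 and 12.3 FPKM in the color break libraries, against 97.7, 90.1 and 110 FPKM in the green libraries.

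Invertases, which split sucrose into glucose and fructose, comprised sets of copies with different values. The 4 copies of 1 description that include VaccDscaff29-augustus-gene-84.20 made up most of the level, 1955 ± 139 FPKM at color break and 1418 ± 62.1 FPKM in green fruit, and none was called, since their log2 changes of 0.72 to 0.78 stayed under the fold threshold. Another set of 3 rose, with 85.4 ± 7.10 FPKM at color break and 29.2 ± 0.738 FPKM in green fruit. It includes VaccDscaff3-augustus-gene-416.27, with 20.7, 19.2 and 24.97 FPKM in the color break libraries, against 6.74, 5.70 and 7.32 FPKM in the green libraries (log2 change 2.00 ± 0.12, adjusted p = 5.1e-07). A further set of 4 fell. It had no counts in any color break library and a summed 10.6, 7.39 and 13.5 FPKM in the green libraries. Sucrose synthases, which split sucrose for polymer synthesis, had 4 rises among 13 tested genes, and sucrose-phosphate synthases, which rebuild sucrose, 2 rises among 7. The most abundant sucrose synthase gene, VaccDscaff46-processed-gene-201.21, was not called, at 146 ± 19.8 FPKM at color break and 217 ± 1.33 FPKM in green fruit. The most abundant sucrose-phosphate synthase gene, VaccDscaff38-augustus-gene-40.23, was not called either, at 68.5 ± 2.51 FPKM at color break and 52.0 ± 1.73 FPKM in green fruit.

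**Figure D4:**
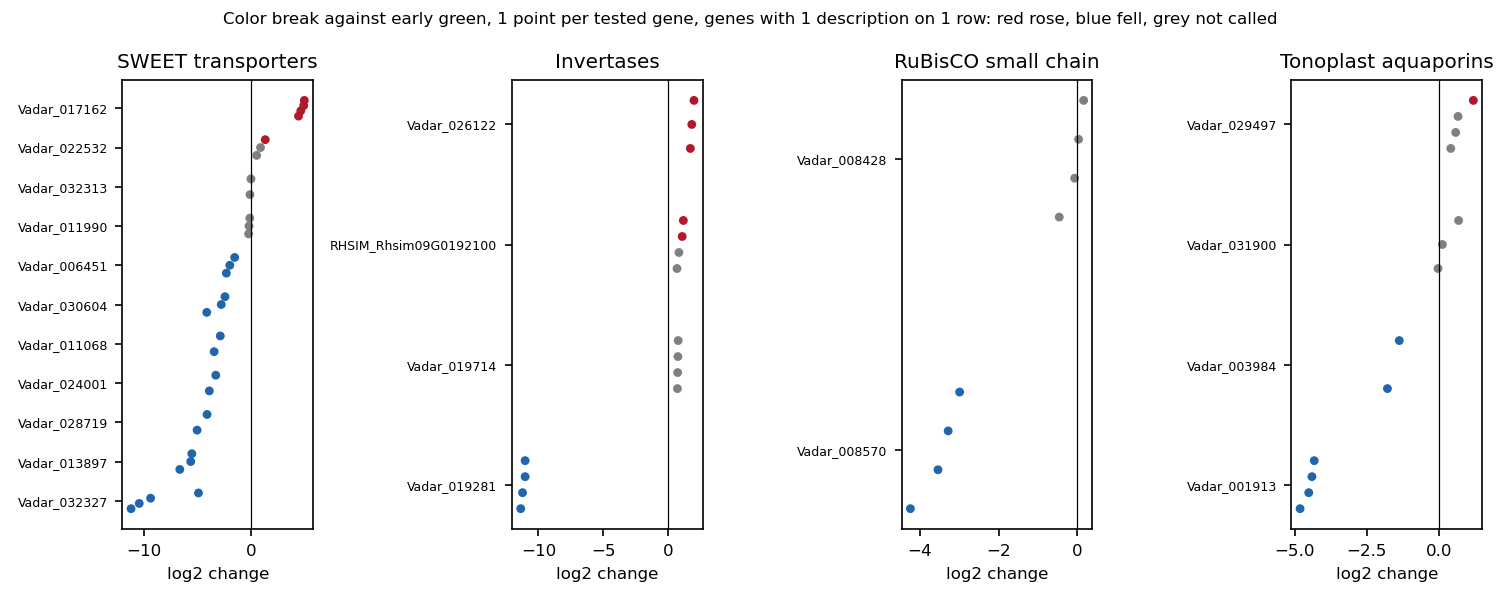
Log2 change at color break against early green of each tested gene in 4 families, with genes that share a protein description on 1 row and colors for the call. No row holds both rising and falling genes, while rows of 1 family differ; the lowest values belong to genes without counts at color break and depend on the model's prior count.

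Of the wall-loosening genes, expansins and xyloglucan endotransglucosylases fell at about the share of all tested genes. Expansins, which loosen bonds between wall polymers, had 22 rises and 6 falls among 45 tested genes (48.9% and 13.3%, beside 8.66% and 14.1% of all tested genes), and 3 falls without color break replicate 1. The 22 rising genes summed to 4087 ± 128 FPKM at color break and 784 ± 34.1 FPKM in green fruit, while the 17 genes not called held 2244 ± 124 FPKM at color break and 2454 ± 62.4 FPKM in green fruit. VaccDscaff28-augustus-gene-303.45 (scaffold 28, 30371245 to 30375335, - strand, 3 exons) had 1256, 1219 and 1302 FPKM in the color break libraries, against 209, 200 and 192 FPKM in the green libraries (log2 change 2.93 ± 0.05, adjusted p = 2.6e-10). VaccDscaff9-augustus-gene-333.21 was nearly silent in green fruit, with 28.9, 26.9 and 29.4 FPKM in the color break libraries, against 0.960, 0.829 and 0.949 FPKM in the green libraries (log2 change 5.23 ± 0.09, adjusted p = 2.6e-10). An expansin that fell, VaccDscaff36-augustus-gene-149.25, had 16.2, 24.2 and 35.3 FPKM in the color break libraries, against 85.7, 74.9 and 77.8 FPKM in the green libraries, with color break replicate 3 the highest of its stage (log2 change -1.37 ± 0.32, adjusted p = 0.0073).

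Xyloglucan endotransglucosylases, which cut and rejoin the tethers between cellulose fibres, had 15 rises and 5 falls among 39 tested genes (38.5% and 12.8%), but 6 rises and 6 falls with limma on log2(FPKM + 1). The largest rise, that of VaccDscaff28-augustus-gene-165.20, came with 236, 245 and 309 FPKM in the color break libraries, against 25.6, 25.5 and 28.0 FPKM in the green libraries (log2 change 3.60 ± 0.10, adjusted p = 4.4e-09). The most abundant, VaccDscaff20-augustus-gene-157.23, had 312, 337 and 553 FPKM in the color break libraries, against 74.9, 71.8 and 70.5 FPKM in the green libraries (log2 change 2.75 ± 0.20, adjusted p = 7.6e-06). Here color break replicate 3 was the highest library in both genes, and without it 19 members rose and 6 fell. Pectate lyases, which break down pectin between cells, had 6 rises and 4 falls among 19 tested genes. Of these VaccDscaff17-augustus-gene-294.21 was among the 5 most abundant transcripts of color break fruit, with 2025, 2041 and 2165 FPKM in the color break libraries, against 474.6, 408 and 404 FPKM in the green libraries (log2 change 2.56 ± 0.07, adjusted p = 2.8e-09). Over the 119 annotated cellulose synthase and related genes, the summed level was 424, 390 and 440 FPKM in the color break libraries, against 432, 431 and 419 FPKM in the green libraries, and 10 of 53 tested members rose and 6 fell; with library-size-only scaling 7 rose and 9 fell.

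Water channels of the plasma and vacuole membranes were tallied apart. Of 23 tested plasma membrane aquaporins 5 rose and 3 fell (21.7% and 13.0%, beside 8.66% and 14.1% of all tested genes), and with library-size-only scaling 4 rose and 6 fell. VaccDscaff40-augustus-gene-184.31 had 345, 363 and 320 FPKM in the color break libraries, against 87.7, 89.7 and 91.0 FPKM in the green libraries (log2 change 2.22 ± 0.06, adjusted p = 3.7e-09), and VaccDscaff19-augustus-gene-334.21 had 5.80, 5.57 and 2.25 FPKM in the color break libraries, against 142, 140 and 138 FPKM in the green libraries (log2 change -4.66 ± 0.39, adjusted p = 3.1e-05). Of 13 tested aquaporins of the vacuole membrane 1 rose and 6 fell (7.69% and 46.2%). The copies of 1 description account for most of that fall: the 4 genes, among them VaccDscaff57-augustus-gene-7.41, summed to 8.35, 13.9 and 112 FPKM in the color break libraries, against 1135, 1216 and 1347 FPKM in the green libraries. VaccDscaff57-augustus-gene-7.41 itself had 1.51, 3.47 and 23.3 FPKM in the color break libraries, against 299, 320 and 350 FPKM in the green libraries (log2 change -4.81 ± 1.14, adjusted p = 0.011), a call that was lost with DESeq2, and its log2 change was -6.71 without color break replicate 3. Seed storage proteins were also higher in that library than in the other color break libraries, and their part in this difference was not tested. Another set of 4 copies held 702 ± 121 FPKM at color break and 565 ± 7.10 FPKM in green fruit, and 1 of them was called: VaccDscaff43-snap-gene-134.30, with 131, 148 and 162 FPKM in the color break libraries, against 79.9, 80.6 and 76.2 FPKM in the green libraries, lost its call with library-size-only scaling, with limma and with the higher expression filter. The vacuolar H+-ATPase, a proton pump that acidifies the vacuole, had 3 rises and 1 fall among 59 tested subunit genes, and no rise with library-size-only scaling. By adjusted p alone 38 of these subunit genes were higher and 4 lower, and their median log2 change was 0.51.

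Among transcription factors falls outnumbered rises. Of 1718 tested genes annotated as DNA-binding regulators, 6.46% rose and 26.2% fell, 111 and 451 genes, beside 8.66% and 14.1% of all tested genes. MYB factors, the family that holds the known switches of anthocyanin synthesis in many fruits, had 17 rises and 26 falls among 77. The neighbouring genes VaccDscaff13-snap-gene-106.35 and VaccDscaff13-snap-gene-106.36, both named MYB1 but without the annotation that defines the list, had under 1 FPKM in green fruit. VaccDscaff13-snap-gene-106.36 had 137, 168 and 136 FPKM in the color break libraries, against 0.134, 0.736 and 0.412 FPKM in the green libraries (log2 change 8.66 ± 0.37, adjusted p = 4e-07; 9.28 without green replicate 2). VaccDscaff13-snap-gene-106.35 had 75.8, 92.7 and 77.4 FPKM in the color break libraries, against 0.535, 0.344 and 0.264 FPKM in the green libraries (log2 change 7.96 ± 0.20, adjusted p = 2.4e-09). Within the MYB list VaccDscaff1486-snap-gene-0.3 held 20.2% of the summed level at color break. Its log2 change was 11.36 without color break replicate 3. The MYB gene VaccDscaff4-augustus-gene-330.20 also rose, with 17.0, 19.7 and 16.8 FPKM in the color break libraries, against 0.266, 0.0673 and 0.161 FPKM in the green libraries (log2 change 6.95 ± 0.26, adjusted p = 3.5e-08). A MYB gene that fell, VaccDscaff19-augustus-gene-345.33, had 1.56, 1.88 and 1.90 FPKM in the color break libraries, against 11.5, 11.9 and 10.7 FPKM in the green libraries (log2 change -2.39 ± 0.12, adjusted p = 1.9e-07).

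Ethylene-response factors had 20 rises and 41 falls among 107. VaccDscaff2-processed-gene-74.6 rose, with 80.8, 70.5 and 63.2 FPKM in the color break libraries, against 16.1, 15.4 and 15.2 FPKM in the green libraries (log2 change 2.48 ± 0.10, adjusted p = 3.7e-08), whereas VaccDscaff1047-processed-gene-0.1 fell, with 0.113, 0.201 and 1.28 FPKM in the color break libraries, against 35.5, 42.8 and 46.9 FPKM in the green libraries (log2 change -5.93 ± 0.85, adjusted p = 0.00066). Without color break replicate 3 the log2 change of that gene was -7.67. HD-ZIP factors, which act in development and in the epidermis, had 8 rises and 27 falls among 67, with 4 rises under library-size-only scaling and 1 with limma. Their most abundant gene, VaccDscaff1475-processed-gene-0.0, rose, with 184, 196 and 127 FPKM in the color break libraries, against 49.1, 47.6 and 46.5 FPKM in the green libraries (log2 change 2.11 ± 0.15, adjusted p = 2.7e-06), while VaccDscaff30-augustus-gene-219.29 had 0.349, 0.156 and 0.369 FPKM in the color break libraries, against 12.5, 12.6 and 10.7 FPKM in the green libraries (log2 change -5.04 ± 0.40, adjusted p = 6.3e-06). Factors of the ABF type, bZIP proteins that act in the response to abscisic acid, had 4 rises and 3 falls among 24 (2 rises and 3 falls with limma), and VaccDscaff18-augustus-gene-2.21, which held 49.5% of their summed level, had 183, 174 and 186 FPKM in the color break libraries, against 86.2, 87.3 and 89.1 FPKM in the green libraries (log2 change 1.33 ± 0.05, adjusted p = 1.7e-08).

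MADS-box factors, a family of organ identity regulators, had 12 falls and no rise among 46 tested genes (edgeR), while 7 were higher at an unadjusted p under 0.05. DESeq2 and limma called no rise either, and edgeR called 2 rises with no expression filter and 7 without the fold threshold. The most abundant, VaccDscaff32-augustus-gene-276.18, was not called, with 113 ± 22.8 FPKM at color break and 163 ± 4.76 FPKM in green fruit (adjusted p = 0.12). The largest fall was that of VaccDscaff2-augustus-gene-218.36, with 0, 0 and 0.568 FPKM in the color break libraries, against 11.03, 13.4 and 13.9 FPKM in the green libraries (log2 change -5.70 ± 1.06, adjusted p = 0.0025). On the same scaffold, VaccDscaff2-augustus-gene-218.35, named AGL11 after an Arabidopsis regulator of ovule and seed identity and chosen after its values were seen, had 0.213, 0.254 and 1.34 FPKM in the color break libraries, against 21.2, 25.8 and 31.5 FPKM in the green libraries. Of both genes color break replicate 3 held the highest level of its stage, and without it VaccDscaff2-augustus-gene-218.36 had no counts at color break. The most abundant gene with any transcription factor annotation, the bHLH gene VaccDscaff35-snap-gene-59.22, overlapped between the stages, with 367, 344 and 285 FPKM in the color break libraries, against 274, 292 and 234 FPKM in the green libraries. Each of edgeR, DESeq2 and limma called 4 falls and no rise among 45 tested bHLH genes, and 17 were higher at an unadjusted p under 0.05.

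Most called genes of auxin signalling fell. Aux/IAA proteins, the repressors that auxin removes and whose genes auxin induces, had 2 rises and 41 falls among 68 tested genes (median -1.45). VaccDscaff130-augustus-gene-1.37 (scaffold 130, 109579 to 113897, - strand, 5 exons) had 0.680, 0.564 and 0.732 FPKM in the color break libraries, against 16.1, 16.2 and 16.4 FPKM in the green libraries (log2 change -4.34 ± 0.13, adjusted p = 5.8e-09). The most abundant, VaccDscaff16-snap-gene-123.42, was not called, with 81.3 ± 2.78 FPKM at color break and 86.8 ± 2.00 FPKM in green fruit (log2 change 0.19 after TMM scaling). Of 53 auxin response factors, the DNA-binding partners of these repressors, 21 fell and none rose by edgeR; 5 were higher at an unadjusted p under 0.05, and DESeq2 and limma called no rise. In that group VaccDscaff40-snap-gene-269.42 had 1.73, 1.80 and 2.01 FPKM in the color break libraries, against 11.7, 12.2 and 11.8 FPKM in the green libraries (log2 change -2.40 ± 0.13, adjusted p = 2.5e-07).

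GH3 enzymes, which conjugate auxin or jasmonate to amino acids, fell in all 6 tested genes of 15 annotated. The most abundant, VaccDscaff2-augustus-gene-404.32, had 7.19, 6.82 and 8.51 FPKM in the color break libraries, against 20.8, 21.9 and 23.2 FPKM in the green libraries (log2 change -1.27 ± 0.10, adjusted p = 4e-06). Over all tested genes 8.66% rose and 14.1% fell. SAUR genes, early auxin targets that promote cell expansion, had 2 rises and 16 falls among 52 (3.85% and 30.8%), and 9 falls without green replicate 2. Auxin transporters had 16 falls among 26 (61.5%). No auxin transporter rose by edgeR, DESeq2 or limma, with 4 higher at an unadjusted p under 0.05. Lists of other hormones also held falls. DELLA proteins, which repress gibberellin responses, and the gibberellin receptors had 1 rise and 16 falls among 51 (1.96% and 31.4%), with VaccDscaff300-processed-gene-0.30 at 1.60 ± 0.545 FPKM at color break and 11.1 ± 0.722 FPKM in green fruit (log2 change -2.50, adjusted p = 5.6e-05). Genes annotated to cytokinin synthesis had 4 rises and 9 falls among 17. The largest fall there was that of VaccDscaff19-processed-gene-332.6, with 0.713, 1.43 and 1.08 FPKM in the color break libraries, against 30.4, 29.7 and 30.2 FPKM in the green libraries (log2 change -4.50 ± 0.51, adjusted p = 0.00013).

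Most light-harvesting genes fell. Of 36 tested genes of the light-harvesting proteins, which bind the chlorophyll that makes the berry green, 30 fell and 3 rose. All 4 tested genes of the antenna protein LHCA4 fell, and they summed to 2.11 ± 0.281 FPKM at color break and 15.3 ± 0.909 FPKM in green fruit. LHCB1, a major antenna protein of photosystem II, differed in direction: 2 of its 3 tested genes rose, and the 3 summed to 131, 149 and 130 FPKM in the color break libraries, against 75.8, 71.2 and 76.2 FPKM in the green libraries. The most abundant of these, VaccDscaff19-processed-gene-195.7, had 67.0, 76.3 and 65.9 FPKM in the color break libraries, against 33.2, 30.8 and 33.1 FPKM in the green libraries (log2 change 1.39 ± 0.09, adjusted p = 6.3e-07). The largest fall of the list was that of VaccDscaff34-augustus-gene-269.38, an LHCB4 gene, with 0.840, 3.27 and 1.31 FPKM in the color break libraries, against 11.1, 8.94 and 10.2 FPKM in the green libraries (log2 change -2.19 ± 0.41, adjusted p = 0.002; -2.93 without color break replicate 2).

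For the small chain of RuBisCO, the carbon-fixing enzyme, the 8 tested genes split into 4 copies of 1 description that fell and 4 of another that did not. The falling copies summed to 77.0, 88.2 and 98.5 FPKM in the color break libraries, against 1107, 1035 and 1041 FPKM in the green libraries. Their most abundant member, VaccDscaff25-augustus-gene-297.30 (scaffold 25, 29766169 to 29768920, + strand, 3 exons), had 40.3, 54.5 and 60.8 FPKM in the color break libraries, against 519, 487 and 494 FPKM in the green libraries (log2 change -2.99 ± 0.14, adjusted p = 1.8e-07). The other 4 copies held 38.6 ± 7.15 FPKM at color break and 49.0 ± 1.58 FPKM in green fruit, and none was called. Genes of translation inside the plastid had 18 falls among 42 by each of edgeR, DESeq2 and limma; none of these tools called a rise, and none was higher at an unadjusted p under 0.05. None of 47 tested genes of carotenoid synthesis, the plastid route to yellow and orange pigments, was called in either direction (edgeR), and their median log2 change was -0.01. DESeq2 called none either and limma 1 fall, while 14 were higher and 10 lower at an unadjusted p under 0.05. The most abundant, VaccDscaff29-augustus-gene-52.39, stood at 157 ± 4.93 FPKM at color break and 221 ± 5.95 FPKM in green fruit.

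Terpene synthases, which make volatile and other terpenes, had 13 rises and 2 falls among 17 tested of 90 annotated genes (median 5.72). With no expression filter 14 rose and 11 fell, so the small number of falls depends on the filter. The largest rise was that of VaccDscaff35-snap-gene-88.44 (scaffold 35, 8838029 to 8854308, + strand, 16 exons), with 42.1, 38.6 and 32.7 FPKM in the color break libraries, against 0.0347, 0.0715 and 0.0733 FPKM in the green libraries (log2 change 9.52 ± 0.22, adjusted p = 2.6e-09). Of the 13 rising genes 4 lay on scaffold 9 and 6 on scaffold 4. On scaffold 9, between 13147261 and 13260218, 4 neighbouring tested genes with 1 KEGG ortholog all rose. Chosen after their values were seen, they spanned 2.63 to 18.2 FPKM in the color break libraries and 0.0384 to 0.338 FPKM in the green libraries, with log2 changes of 4.25 to 7.13.

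Seed storage proteins, which feed the embryo, showed the largest fall in summed level among the lists. Of 104 annotated genes with nutrient reservoir activity 81 were tested, of which 62 fell and 4 rose (median -6.64). Their summed level was 1542, 1530 and 2304 FPKM in the color break libraries, against 24835, 26384 and 30154 FPKM in the green libraries. VaccDscaff43-augustus-gene-40.55 and VaccDscaff47-processed-gene-159.4, copies with 1 description, were among the 5 most abundant transcripts of green fruit. VaccDscaff43-augustus-gene-40.55 (scaffold 43, 4065050 to 4067837, - strand, 4 exons) had 4.54, 6.88 and 50.9 FPKM in the color break libraries, against 2254, 2445 and 2699 FPKM in the green libraries (log2 change -6.61 ± 1.41, adjusted p = 0.0071). VaccDscaff47-processed-gene-159.4 had 1.60, 4.60 and 35.0 FPKM in the color break libraries, against 1877, 2206 and 2538 FPKM in the green libraries (log2 change -7.05 ± 1.54, adjusted p = 0.008). Without color break replicate 3 the log2 changes of this pair were -8.47 and -9.18. Each lay in a run of 6 neighbouring genes that all fell, on scaffold 43 from 4064134 to 4130617 and on scaffold 47 from 15872250 to 15921698.

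Within the storage list VaccDscaff11-snap-gene-368.41 had no counts in any color break library, against 56.0, 45.3 and 55.5 FPKM in the green libraries. Its fall was at least 3530-fold with a floor of 3 counts per library. This gene carries the KEGG ortholog of oxalate decarboxylase. The 4 rising genes of the list summed to 1207 ± 191 FPKM at color break and 45.5 ± 1.54 FPKM in green fruit. Among them VaccDscaff25-processed-gene-364.9 had 28.7, 30.7 and 38.7 FPKM in the color break libraries, against 1.17, 0.969 and 1.11 FPKM in the green libraries (log2 change 5.19 ± 0.13, adjusted p = 2e-09). Genes of oil bodies, the lipid stores of seeds, had 12 falls among 34 and 16 without color break replicate 3, with a summed level of 222, 260 and 808 FPKM in the color break libraries, against 3402, 3703 and 3978 FPKM in the green libraries. No oil body gene rose by edgeR, DESeq2 or limma, with 8 higher at an unadjusted p under 0.05. Color break replicate 3 held more than the other color break libraries in both lists, and the part of seed tissue in the other results was not tested. The most abundant oil body gene, VaccDscaff36-processed-gene-57.7, was not called, with 11.2, 21.7 and 187 FPKM in the color break libraries, against 868, 939 and 955 FPKM in the green libraries (log2 change -3.37, adjusted p = 0.053). Without that replicate its log2 change was -5.52 and past the threshold. Late embryogenesis abundant proteins, a family that protects drying seeds, had 6 rises and 3 falls among 15 tested genes, and 6 rises and 7 falls without color break replicate 3 or with limma. The gene VaccDscaff42-augustus-gene-192.39 of that family was not called either, with 5.12, 9.56 and 110 FPKM in the color break libraries, against 245, 296 and 301 FPKM in the green libraries (adjusted p = 0.14). Without replicate 3 its log2 change was -4.96 and past the threshold. Another gene of that family name, VaccDscaff156-augustus-gene-0.25, rose, with 162, 179 and 196 FPKM in the color break libraries, against 29.9, 34.1 and 37.7 FPKM in the green libraries (log2 change 2.68 ± 0.13, adjusted p = 2.2e-07).

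**Figure D5:**
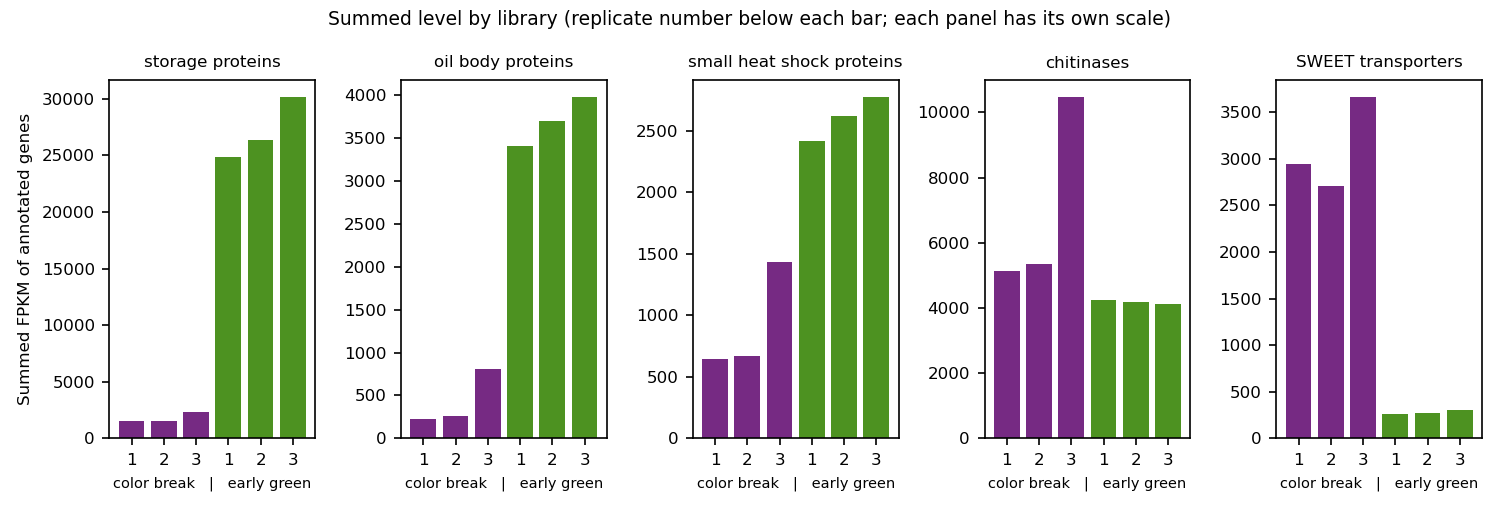
Summed FPKM of all annotated genes of 5 lists in each library, 3 color break libraries at the left and 3 early green libraries at the right of each panel. Color break replicate 3 is the highest color break library for all 5 lists. It stands at 2304 FPKM for storage proteins, 808 for oil body proteins and 1434 for small heat shock proteins. For chitinases it stands at 10470 FPKM and for SWEET transporters at 3663 FPKM.

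Several stress-linked lists also differed in color break replicate 3. Small heat shock proteins, chaperones that are also abundant in ripening seeds, had 5 rises and 12 falls among 49 tested genes, and 5 rises and 35 falls without color break replicate 3. Their summed level was 648, 667 and 1434 FPKM in the color break libraries, against 2420, 2617 and 2773 FPKM in the green libraries. The most abundant, VaccDscaff26-processed-gene-137.16, had 20.5, 27.2 and 249 FPKM in the color break libraries, against 596, 625 and 676 FPKM in the green libraries. It was not called (log2 change -2.40, adjusted p = 0.11), and without replicate 3 its log2 change was -4.44 and past the threshold. A member that rose, VaccDscaff3-processed-gene-106.7, had 28.1, 28.7 and 12.1 FPKM in the color break libraries, against 6.28, 8.69 and 8.08 FPKM in the green libraries (log2 change 1.86 ± 0.30, adjusted p = 0.0008).

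Chitinases, enzymes that act on fungal walls and are abundant in many ripe fruits, had 25 rises and 2 falls among 43 tested genes, 21 rises without color break replicate 3 and 16 with library-size-only scaling. Their summed level was 5125, 5357 and 10470 FPKM in the color break libraries, against 4252, 4184 and 4118 FPKM in the green libraries. VaccDscaff30-snap-gene-82.54 rose evenly in the 3 libraries, with 41.6, 45.3 and 42.9 FPKM in the color break libraries, against 8.27, 7.14 and 7.30 FPKM in the green libraries (log2 change 2.79 ± 0.09, adjusted p = 6.8e-09). The most abundant, VaccDscaff53-augustus-gene-15.52, overlapped between the stages, with 1260, 1429 and 1963 FPKM in the color break libraries, against 1510, 1539 and 1550 FPKM in the green libraries. PR1 proteins, markers of the response to pathogens, had 4 rises among 6. No PR1 gene fell by edgeR, DESeq2 or limma, with 1 lower at an unadjusted p under 0.05. VaccDscaff2-processed-gene-394.25 had 36.1, 71.5 and 27.8 FPKM in the color break libraries, against 6.04, 6.48 and 6.91 FPKM in the green libraries (log2 change 3.08 ± 0.37, adjusted p = 0.0002), and VaccDscaff2-snap-gene-395.53 had 5.36, 7.47 and 47.2 FPKM in the color break libraries, against 1.63, 1.65 and 2.62 FPKM in the green libraries (log2 change 3.63 ± 0.90, adjusted p = 0.012), a log2 change of 1.99 without replicate 3.

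A pair of thaumatin-like genes on scaffold 43, of a family with antifungal members, took opposite courses. VaccDscaff43-snap-gene-245.31 rose, with 21.7, 22.9 and 75.2 FPKM in the color break libraries, against 2.32, 3.46 and 2.82 FPKM in the green libraries (log2 change 4.08 ± 0.56, adjusted p = 0.00069). VaccDscaff43-snap-gene-244.23 fell, with 2.32, 2.77 and 9.21 FPKM in the color break libraries, against 42.2, 45.0 and 52.6 FPKM in the green libraries (adjusted p = 0.0027). Color break replicate 3 was the highest of its stage for both, and without it their log2 changes were 3.24 and -3.90. Intracellular NLR receptors, which sense pathogens and were listed by the GO term for ADP binding, had 12 rises and 109 falls among 324 tested of 1043 annotated genes; the list also holds phosphoglycerate kinase genes, which share the term. VaccDscaff38-augustus-gene-285.27 had 0.440, 0.806 and 0.987 FPKM in the color break libraries, against 25.2, 25.8 and 26.6 FPKM in the green libraries (log2 change -4.81 ± 0.47, adjusted p = 5.1e-05). Outside the lists, VaccDscaff8-processed-gene-60.6, named receptor-like protein 7, had 0.0305, 0.0898 and 0.120 FPKM in the color break libraries, against 10.1, 13.9 and 11.7 FPKM in the green libraries (log2 change -6.85 ± 0.36, adjusted p = 5.3e-07). Another unlisted gene, the kirola-like VaccDscaff1338-augustus-gene-0.7, of a protein family named from kiwifruit, had 60.1, 65.2 and 67.4 FPKM in the color break libraries, against 0.0890, 0.353 and 0.181 FPKM in the green libraries (log2 change 8.48 ± 0.27, adjusted p = 2.3e-08; 9.07 without green replicate 2).

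Lists of the core machinery differed in their share of calls. Of 197 tested proteasome genes 7 rose and 1 fell (3.55% and 0.508%, beside 8.66% and 14.1% of all tested genes). By adjusted p alone 97 proteasome genes were higher and 5 lower, and the median log2 change of the list was 0.35. Of 25 cyclins, which drive the cell cycle, 1 fell. No cyclin rose by edgeR, DESeq2 or limma, with 8 higher at an unadjusted p under 0.05. None of 53 genes of respiratory complex I was called by edgeR in either direction, although their median log2 change was 0.55. DESeq2 and limma called none, and 31 were higher and 1 lower at an unadjusted p under 0.05. Respiratory complex III, another complex of the mitochondrial electron chain, had 13 rises among 43 tested genes (30.2%, beside 8.66% of all tested genes), but 3 with library-size-only scaling and 2 with limma. The COPI coat of Golgi vesicles had 8 rises among 51 (15.7%), 2 with library-size-only scaling and 1 with limma. No COPI gene fell by edgeR, DESeq2 or limma, with 2 lower at an unadjusted p under 0.05. The transcript pair with the highest level in both stages carries 1 hypothetical description, and neither gene was called. VaccDscaff6-snap-gene-73.39 had 7029, 7300 and 7562 FPKM in the color break libraries, against 4985, 4997 and 4855 FPKM in the green libraries (log2 change 0.84 ± 0.04, adjusted p = 1.4e-07). VaccDscaff1556-snap-gene-0.6 had 5696, 5887 and 5992 FPKM in the color break libraries, against 4273, 4215 and 4029 FPKM in the green libraries (log2 change 0.77 ± 0.04, adjusted p = 1.3e-07). The stages did not overlap for either gene, but both changes were under 2-fold.

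Neighbouring genes were also compared, as a description without a test. Of the 4067 genes that rose, 29.1% had a rising gene next to them among the tested genes of the scaffold, against 14.9% of the genes that did not rise. When neighbours with the same description were left out, the shares were 25.3% and 14.7%. Of the genes that fell, 33.0% had a falling neighbour, against 24.1% of the genes that did not fall. Over the 48 scaffolds with the most tested genes, at least 319 each, 5.84% to 12.0% of the genes rose and 10.6% to 17.1% fell.

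Runs of at least 4 neighbouring tested genes with the same call occurred among rising and falling genes. Of the rising runs 16 held 4 genes and the longest 8, and of the falling runs 28 held 4 genes and the longest 8. The examples that follow were chosen after their values were seen. On scaffold 8, from 23498884 to 23617716, 5 neighbouring genes rose, of which 3 encode phenylalanine ammonia-lyase, the entry enzyme of phenylpropanoid synthesis. VaccDscaff8-augustus-gene-235.20 had 97.9, 113 and 88.4 FPKM in the color break libraries, against 0.802, 0.624 and 0.414 FPKM in the green libraries (log2 change 7.62 ± 0.27, adjusted p = 9.2e-08). The other 2 had log2 changes of 6.57 ± 0.22 and 6.55 ± 0.16.

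A matching pair of runs lay on scaffolds 37 (30016657 to 30069503) and 6 (41957584 to 42007994), with the same 4 descriptions in the same order. Each ended in a gene named UDP-glucose: flavonoid 3-O-glucosyltransferase, whose enzyme attaches the sugar that makes anthocyanins stable. VaccDscaff37-augustus-gene-300.34 had 322, 351 and 353 FPKM in the color break libraries, against 0.757, 0.758 and 0.752 FPKM in the green libraries (log2 change 9.09 ± 0.13, adjusted p = 1.4e-10). VaccDscaff6-augustus-gene-420.36 had 191, 216 and 215 FPKM in the color break libraries, against 0.430, 0.504 and 0.425 FPKM in the green libraries (log2 change 9.10 ± 0.14, adjusted p = 1.7e-10). The 3 genes before it carry KEGG orthologs of xylose isomerase, an AMP-activated type of protein kinase and glutaredoxin, and rose by 1.68, 2.12 and 1.89 on the log2 scale on scaffold 37 and by 1.20, 2.46 and 1.28 on scaffold 6. The xylose isomerase gene of scaffold 6, VaccDscaff6-augustus-gene-419.31, lost its call with library-size-only scaling (0.90), with limma (0.91) and with a mean of at least 5 FPKM (0.98). The glutaredoxin gene of scaffold 6, VaccDscaff6-augustus-gene-420.32, overlapped between the stages, with 5.85, 27.0 and 22.7 FPKM in the color break libraries, against 9.54, 9.19 and 9.14 FPKM in the green libraries. Its call was lost when any library other than color break replicate 1 was left out. It was also lost with library-size-only scaling, no expression filter, a mean of at least 5 FPKM, the replicate block, a fit of only the 6 libraries, and limma.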

How the data were processed

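RNA was taken from 'Bluecrop' fruit at color break and early green, with 3 libraries per stage, and from mature fruit. The authors deposited estimated counts and FPKM per gene with annotation; fastp, HISAT2, StringTie and DESeq2 are named, without versions, per the submitters' processing notes. The FPKM deposited by the authors describe levels and set the expression filter of at least 1 FPKM in at least 3 of 6 libraries. The deposited estimated counts, already whole numbers, were fitted over all 9 libraries with edgeR 4.0.16 (R 4.3.3, TMM scaling, quasi-likelihood test, stage as the only term), and p-values were adjusted by Benjamini-Hochberg over 46983 genes. Calls needed an adjusted p below 0.05 with a log2 change of 1 or more in size. DESeq2 1.42.0 and limma 3.58.1 were alternatives. On counts simulated for this comparison over 46983 genes, the fit called 0% of genes changed 1.5-fold, 32% of those changed 2-fold, 86% of those changed 4-fold and 98% of those changed 8-fold, and 0.0235% of unchanged genes. The changed genes were drawn only from genes above a minimum mean count. The fold threshold itself limits calls of 1.5-fold and 2-fold changes.

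Named genes were the largest called rise and fall of each list (mean of at least 10 FPKM in the higher stage, stages not overlapping), its gene with the highest mean FPKM, the 5 largest named rises and falls outside the lists, and the 5 highest genes of each stage; others are said to be chosen after their values were seen. The members and lists were chosen with earlier results of these data known, and the MATE list after the annotation was seen. The replicates are labelled independent biological samples. The p-values weigh the difference between stages against the spread between replicates. That spread was estimated over all 9 libraries, with information shared across genes. Genes with no counts in a stage are given as bounds against 3 counts per library. Floors cover counting error only. No sequences were used here.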

Additional observations from a re-analysis of the deposited data

How the results depend on the processing

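No alternative called any gene in the opposite direction to the main analysis. Over all genes, 16338 were called with no expression filter, 3718 with a mean of at least 5 FPKM and 25671 by adjusted p alone. Rises numbered 1774 with a mean of at least 5 FPKM, 2219 with limma and 12852 by adjusted p alone; falls numbered 10353 with no filter, 1944 with a mean of at least 5 FPKM and 12819 by adjusted p alone. A higher filter leaves fewer genes to test. Leaving out each library in turn gave 3980 to 4243 rises and 6234 to 7166 falls. The same replicate number did not pair the libraries (correlations of deviations 0.03, -0.02 and 0.03), and with the replicate number as a block 4060 genes rose and 6828 fell.

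With a mean of at least 5 FPKM, 17 MATE transporters, 4 xyloglucan endotransglucosylases, 6 terpene synthases and 13 chitinases rose, and 143 transcription factors, 0 SWEET, 15 Aux/IAA, 6 auxin response factor and 10 NLR genes fell. With limma, 21 MATE transporters, 6 xyloglucan endotransglucosylases and 11 chitinases rose, and 28 small heat shock proteins and 72 NLR receptors fell. With no filter, 29 SWEET and 223 NLR genes fell. By adjusted p alone, 750 transcription factors, 35 auxin response factors and 188 NLR receptors fell. Among small heat shock proteins 24 fell with the replicate block, and 8 to 35 when libraries were left out in turn, the highest without color break replicate 3; with library-size-only scaling 16 chitinases rose. The causes were not tested. The naming rule and later choice gave 192 genes, many of which were not called in the main analysis and so had no call to lose. Of those called, 27 lost their call under at least 1 alternative, 16 of them with library-size-only scaling and 18 with limma, and none reversed. The self-test called few 2-fold changes, since the fold threshold itself limits such calls. Calls near that threshold are the least certain.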
